A study of Mus musculus with 4 samples.

Results

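The axon guidance ligands and receptors are the genes of the semaphorin, plexin, neuropilin, ephrin, Eph, Slit, Robo and netrin families together with the netrin receptors Dcc, Neo1 and Unc5. They were chosen by gene symbol, which gave 70 of the 24100 genes in the deposited tables, 35 ligands and 35 receptors. They were read in 3 immunopurified (IP) libraries and 1 Input library of prefrontal cortex, from adult males of the mouse line Crh-IRES-Cre, made by translating ribosome affinity purification (TRAP) and RNA sequencing. In this line Cre recombinase is made from the Crh locus, the gene of the stress peptide corticotropin-releasing hormone. Polysomes carrying an EGFP tag were captured with antibodies to EGFP for the IP libraries, the Input is the library labelled as such from the same tissue, and both fractions come from untreated mice of the same line. Each library was made from 5 males. How the EGFP tag reached the cells, and whether the Input and the IP libraries share animals, are not given in the sources used here.

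Guidance cues are secreted or held in the membrane, and they steer growth cones by attraction or repulsion through receptors on the axon. Semaphorins act through plexins, the secreted class mostly with a neuropilin as partner, ephrins act through the Eph receptor tyrosine kinases, Slits through Robo receptors, and netrins through Dcc, Neo1 and Unc5 receptors. In the adult cortex many of these genes stay on, where they are known for roles at synapses, in myelin and in blood vessels.

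Total counts were 10031072 to 23548375 in the IP libraries and 14474529 in the Input. Levels are given as CPM, the share of a library's counts scaled to the usual unit and by TMM factors. A single count was worth 0.0436 to 0.107 CPM in the IP libraries and 0.0600 CPM in the Input. All 8 markers of GABAergic neurons lay above the Input in all 3 IP libraries, as did all 10 of Vip and caudal ganglionic eminence interneurons. Of all genes tested, 19.7% lay above the Input in all 3 IP libraries and 24.1% lay below it. Crh was at 501, 174 and 193 CPM in IP 1, 2 and 3, against 1.32 CPM in the Input. Every IP library was lower than the Input for 10 of 14 excitatory neuron markers, and every IP library was higher for 10 of 14 endothelial markers. Also lower in every IP library were 9 of 10 astrocyte, 9 of 10 microglial, 7 of 10 oligodendrocyte and 6 of 8 oligodendrocyte precursor markers. The same held for 5 of 9 tested meningeal fibroblast markers. Higher in every IP library were 4 of 9 tested mural markers and 2 of 6 tested markers of medial ganglionic eminence interneurons. Against their list went 1 endothelial, 1 oligodendrocyte, 2 precursor and 1 fibroblast marker. A higher level in IP may reflect more captured cells that use a gene or more of its RNA per captured cell, which cannot be told apart in such libraries.

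None of the axon guidance genes passed the test of IP against Input. By the quasi-likelihood test of edgeR, with Benjamini-Hochberg adjustment over all genes tested and a threshold of 0.05, 0 of the 66 members with enough counts to be tested were called, beside 67 of 14636 genes (0.458%; 0.410% higher in IP and 0.0478% lower). DESeq2 called 1 member, Sema3c (beside 1.24% of all genes), and limma-voom called 0 (beside 0.348%). At an unadjusted p under 0.05 in edgeR there were 4 members, all of them semaphorins and all higher in IP, beside 4.43% of all genes in either direction, 3.20% higher and 1.23% lower. Of the other settings run in edgeR, 1 member was called without IP 1 (Sema5a, beside 1.47% of all genes) and 1 without IP 2 (Sema3c, beside 0.727%). None was called without IP 3 (0.623% of all genes), without a low-count filter (0.612%), at a mean of at least 5 CPM (0.588%), with RLE or upper-quartile factors (0.451% each) or with library totals (0.444%).

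The test could resolve only large differences. The smallest log2 fold of any called gene in the whole table was 1.64 in size, and 11 members reached that size with standard errors (SE) too wide for a call. Over the members the SE of the log2 fold ran from 0.42 to 3.79, with a median of 0.99. A member that was not called is therefore not shown to be equal in IP and Input.

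The IP libraries lay above the Input for 20 members and below it for 10, without overlap, and overlapped it for 36. Of the members tested that is 30.3% above, beside 19.7% of all genes tested, and 15.2% below, beside 24.1%. With library totals alone in place of TMM factors the members split 14 above (21.2%, beside 12.1% of all genes) and 15 below (22.7%, beside 34.0%). The median log2 fold of the members was 0.22, beside 0.08 for all genes tested. It was -0.05 with library totals, where that of all genes was -0.19, and -0.17 with limma-voom, where that of all genes was -0.14. Ligands and receptors each had 10 members above and 5 below the Input, and their medians were 0.14 for ligands and 0.23 for receptors.

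**Figure D1:**
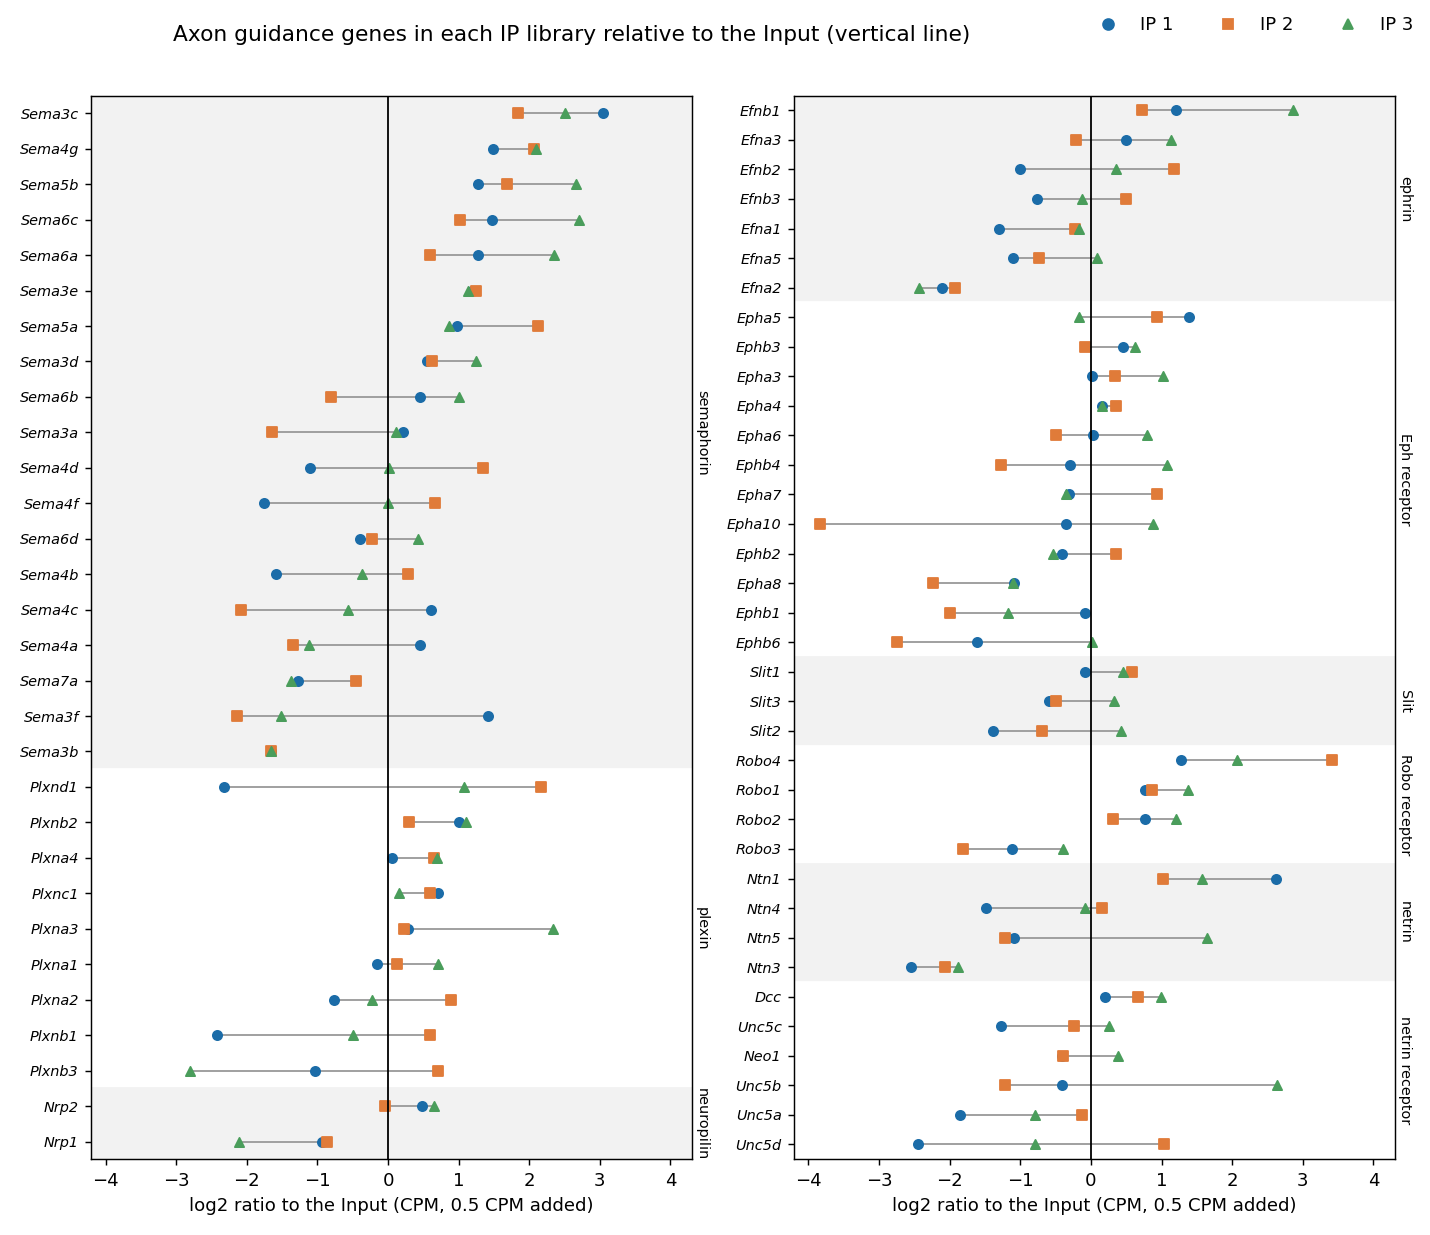
Log2 ratio of each IP library to the Input (horizontal axis, CPM with 0.5 CPM added) for the 66 tested axon guidance genes, grouped by family. Each row is a gene, each marker an IP library, and the vertical line is the Input. The markers of 8 semaphorins, Robo1, Robo2 and Robo4 lie wholly to the right of the line, while those of genes such as Plxnd1 and Unc5d spread to both sides.

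Semaphorins held the 4 members with the smallest p-values, Sema3c, Sema5a, Sema4g and Sema6a. Of 19 tested semaphorins 8 lay above the Input in all 3 IP libraries (42.1%, beside 19.7% of all genes) and 2 lay below (10.5%, beside 24.1%). The 8 were Sema3c, Sema3d, Sema3e, Sema4g, Sema5a, Sema5b, Sema6a and Sema6c, and the same 8 genes were above with RLE factors, upper-quartile factors and library totals. The median log2 fold of the semaphorins was 0.40, beside 0.08 for all genes tested. It was 0.19 under upper-quartile factors (all genes -0.13), 0.13 under library totals (all genes -0.19) and -0.12 under limma-voom (all genes -0.14). In the other families together 12 of 47 tested members were above (25.5%, beside 19.7% of all genes) and 8 below (17.0%, beside 24.1%). Under library totals 6 were above (12.8%, beside 12.1% of all genes) and 12 below (25.5%, beside 34.0%). Under upper-quartile factors 7 were above (14.9%, beside 13.4%) and 11 below (23.4%, beside 31.6%).

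Sema3c encodes a secreted semaphorin that binds neuropilins and plexin D1 (Entrez 20348, chromosome 5, 17574281 to 17730268 in GRCm38, protein coding). It was at 146, 62.7 and 99.2 CPM in IP 1, 2 and 3, against 17.2 CPM in the Input. All 3 IP libraries were well above the Input, and IP 1 was the highest, as it was for Crh. The IP mean of Sema3c was 103 ± 41.7 CPM (SD, n = 3) and the log2 fold 2.58 ± 0.74 (SE, 95% interval 1.04 to 4.12, unadjusted p = 0.00237, adjusted p = 0.261 by edgeR). Over 10 alternatives the log2 fold ran from 2.22 to 2.83 and the adjusted p from 0.00310 with DESeq2 to 0.521 with limma-voom, and without IP 2 it was called by edgeR (adjusted p = 0.0372).

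Sema5a, a transmembrane semaphorin with thrombospondin repeats that can attract or repel axons, was at 169, 375 and 157 CPM in IP 1, 2 and 3, against 85.7 CPM in the Input. The IP libraries were all higher, with IP 2 the highest by far. The log2 fold was 1.45 ± 0.56 (SE, 95% interval 0.28 to 2.62, unadjusted p = 0.0182, adjusted p = 0.805 by edgeR). Without IP 1 it was 1.61 and called (adjusted p = 0.0427), and without IP 2 it was 0.93.

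Sema4g, a transmembrane class 4 semaphorin known as a partner of plexin B2 in the mouse cerebellum, was at 43.5, 65.7 and 66.8 CPM in IP 1, 2 and 3, against 15.2 CPM in the Input. The IP values were close to each other and all above the Input (log2 fold 1.94 ± 0.82, SE, unadjusted p = 0.0279, adjusted p = 0.916 by edgeR). Sema6a, a transmembrane ligand of plexins A2 and A4, was at 81.9, 51.5 and 175 CPM in the IP libraries and at 33.8 CPM in the Input. Its IP libraries were also all higher, but spread more (log2 fold 1.60 ± 0.73, SE, unadjusted p = 0.0407, adjusted p = 1 by edgeR). Without IP 3 its log2 fold was 0.98, and over the alternatives its unadjusted p reached 0.248.

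Because these semaphorins were the members at an unadjusted p under 0.05, the 250 bases before the RefSeq start of 3 of them are shown (GRCm38.p6, plus strand; Sema3c chr5:17574566-17574815, Sema5a chr15:32244563-32244812, Sema4g chr19:44989094-44989343). Capitals mark AGGTCA, a core of nuclear receptor sites, searched on both strands together with TAATTA, a core of homeodomain sites, and no matches of the 2 overlapped.
Sema3c: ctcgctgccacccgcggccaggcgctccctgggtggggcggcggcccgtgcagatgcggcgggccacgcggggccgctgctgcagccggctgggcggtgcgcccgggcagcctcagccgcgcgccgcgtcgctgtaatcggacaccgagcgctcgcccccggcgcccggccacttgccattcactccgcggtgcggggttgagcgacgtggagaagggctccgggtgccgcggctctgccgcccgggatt
Sema5a: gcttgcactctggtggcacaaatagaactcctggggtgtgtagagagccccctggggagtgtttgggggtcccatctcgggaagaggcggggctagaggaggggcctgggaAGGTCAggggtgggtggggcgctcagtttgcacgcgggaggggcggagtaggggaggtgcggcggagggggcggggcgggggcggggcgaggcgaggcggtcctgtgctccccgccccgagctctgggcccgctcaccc
Sema4g: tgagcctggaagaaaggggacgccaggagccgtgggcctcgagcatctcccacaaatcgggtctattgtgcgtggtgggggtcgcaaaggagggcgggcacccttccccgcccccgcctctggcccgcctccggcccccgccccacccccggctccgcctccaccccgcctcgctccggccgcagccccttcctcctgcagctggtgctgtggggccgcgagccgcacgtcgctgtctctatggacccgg
AGGTCA was found once, before Sema5a, and is held by 14% of all 32851 such windows, while TAATTA was found in none of the 3 and is held by 4.84%. Bases G and C made up 78.4%, 72% and 73.2% of the windows of Sema3c, Sema5a and Sema4g, beside a median of 52.4%. The number of CG pairs was 39, 17 and 24, beside a median of 6. The Sema3c window, and all but the first bases of the Sema4g window, lie inside the GENCODE gene, whose start is upstream of the RefSeq start. A match of this kind is a description of the letters only.

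Among the other semaphorins above the Input, Sema3e, a secreted ligand that binds plexin D1 directly, was the most even of the members at a mean of at least 5 CPM. It was at 56.7, 58.8 and 54.6 CPM in IP 1, 2 and 3, against 24.6 CPM in the Input (log2 fold 1.21 ± 0.76, SE, 95% interval -0.38 to 2.79). Sema5b, the transmembrane relative of Sema5a, was at 23.5, 31.0 and 61.9 CPM in the IP libraries and 9.35 CPM in the Input (log2 fold 2.05 ± 0.99, SE, unadjusted p = 0.0523 by edgeR). Every IP library thus stood above the Input for both genes. Sema6c was at 7.59 to 25.6 CPM in the IP libraries and 3.48 CPM in the Input (log2 fold 2.06 ± 1.42), and Sema3d at 6.19 to 10.3 CPM and 4.08 CPM (log2 fold 0.91 ± 1.59).

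The secreted genes Sema3d, Sema3a, Sema3e and Sema3c lie in this order on chromosome 5, from 12383385 to 17730268. Sema3d, Sema3e and Sema3c were above the Input in all 3 IP libraries. Sema3a, the classic growth cone collapsing factor, was not, at 40.0, 10.7 and 37.2 CPM in IP 1, 2 and 3, against 34.4 CPM in the Input.

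Sema7a and Sema3b were the semaphorins below the Input. Sema7a, which is anchored by a lipid and binds plexin C1 and integrins, was at 27.3, 49.0 and 25.6 CPM in IP 1, 2 and 3, against 67.0 CPM in the Input (log2 fold -0.98 ± 0.73, SE, unadjusted p = 0.194 by edgeR). Sema3b, a secreted semaphorin, had 0 counts in all 3 IP libraries and 18 counts (1.08 CPM) in the Input. Its Input level was 15.8 times a floor of 3 counts over the IP libraries together. That figure allows for counting error in the IP libraries only, not for error in the single Input or spread between libraries. Its log2 fold of -7.04 ± 3.79 (SE) was not resolved from 0 (unadjusted p = 0.0806 by edgeR). With Sema3b at that floor the semaphorin median is also 0.40, which had to follow because Sema3b stays the lowest semaphorin.

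The remaining tested semaphorins straddled the Input. Sema6d, a transmembrane ligand of plexin A1, was at 43.2, 49.0 and 77.2 CPM in IP 1, 2 and 3, against 57.3 CPM in the Input (log2 fold -0.02 ± 0.68, SE, 95% interval -1.45 to 1.40). The others, Sema3a, Sema3f, Sema4a, Sema4b, Sema4c, Sema4d, Sema4f and Sema6b, had log2 folds from -0.43 to 0.42. Several of them split between IP libraries. Sema4f was at 7.28, 41.0 and 25.5 CPM in IP 1, 2 and 3, against 25.6 CPM in the Input, and Sema4a, at 37.0, 10.3 and 12.1 CPM against 26.7 CPM, ran the opposite way. Sema3g had 0, 0 and 5 counts in the IP libraries and 1 in the Input, and was not tested.

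**Figure D2:**
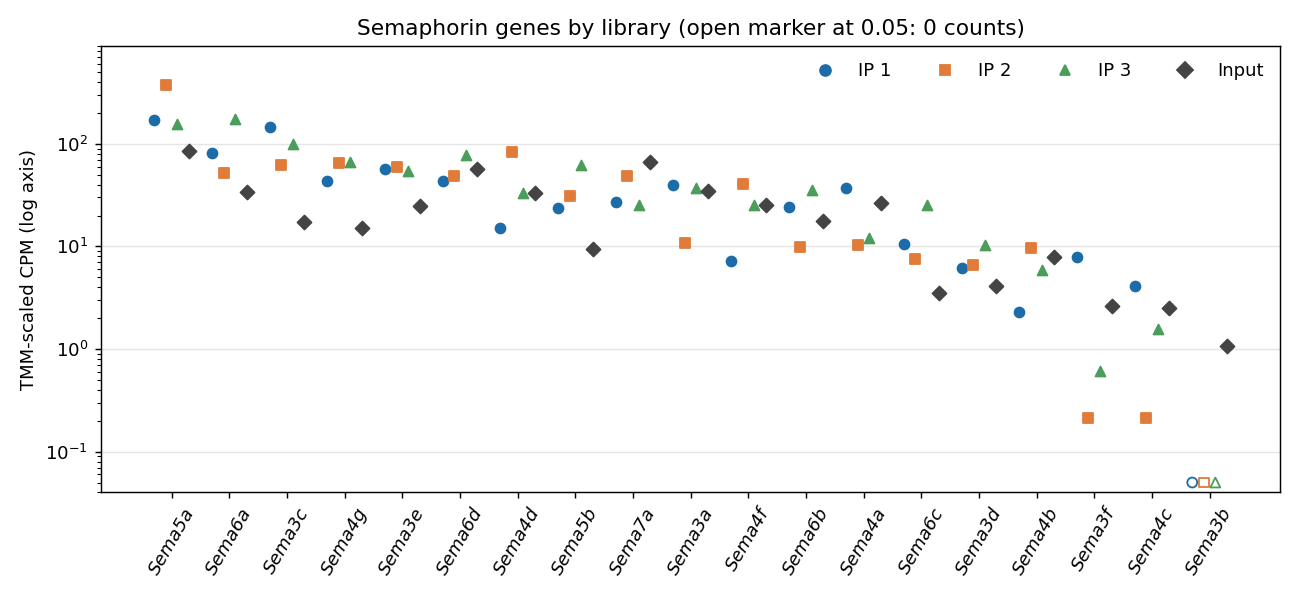
TMM-scaled CPM (vertical log axis) of the 19 tested semaphorin genes in IP 1, 2 and 3 and in the Input, ordered by mean level in IP. For Sema5a, Sema6a, Sema3c, Sema4g, Sema3e, Sema5b, Sema6c and Sema3d the Input diamond is the lowest of the 4 markers, and for Sema7a and Sema3b it is the highest.

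Plexins, the receptors of semaphorins, lay above the Input in all 3 IP libraries for 4 of 9 genes, Plxna3, Plxna4, Plxnb2 and Plxnc1 (44.4%, beside 19.7% of all genes), and none lay wholly below. Under upper-quartile factors and under library totals only Plxnb2 of the plexins was above (11.1%, beside 13.4% and 12.1% of all genes). Over the family the median log2 fold was 0.50 (all genes 0.08), with 0.22 under library totals (all genes -0.19) and 0.18 under limma-voom (all genes -0.14). Plxna4, a partner of neuropilins for class 3 semaphorins and a receptor of Sema6a, was at 199, 301 and 312 CPM in IP 1, 2 and 3, against 191 CPM in the Input (log2 fold 0.50 ± 0.44, SE, 95% interval -0.42 to 1.42). Plxnc1, the receptor of Sema7a, was at 141, 131 and 95.6 CPM in the IP libraries and 85.9 CPM in the Input (log2 fold 0.51 ± 0.53). In both genes the lowest IP library was close to the Input.

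Plxna2, a receptor of class 6 semaphorins, was at 144, 455 and 208 CPM in IP 1, 2 and 3, against 245 CPM in the Input. Its log2 fold of 0.14 ± 0.52 (SE) was -0.47 without IP 2, -0.17 under limma-voom, -0.15 under library totals and -0.09 under upper-quartile factors, so no direction can be given. Plxna1 was at 90.8, 111 and 165 CPM in the IP libraries and 101 CPM in the Input, and it overlaps another annotated gene over 10.71% of its exon bases. Plxnd1, the receptor of Sema3e, differed more between IP libraries than from the Input, at 7.10, 170 and 79.9 CPM in IP 1, 2 and 3, against 37.5 CPM. Its log2 fold of 1.19 ± 1.03 (SE) was 1.71 without IP 1 (adjusted p = 0.304 by edgeR), 0.21 without IP 2 and -0.25 under limma-voom, so no direction can be given.

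Plxnb2, named above as a partner of Sema4g, was at 31.7, 19.4 and 34.1 CPM in IP 1, 2 and 3, against 15.7 CPM in the Input. Plxna3 was near the Input in 2 of the 3 IP libraries and high in IP 3, at 11.1, 10.6 and 47.2 CPM against 8.99 CPM. The low plexins Plxnb1 and Plxnb3 were at 1.09 to 12.4 CPM and 0.172 to 7.16 CPM in the IP libraries, against 8.04 and 4.20 CPM in the Input. Of the neuropilins, Nrp1, which pairs with plexins for Sema3a, was under the Input throughout, at 14.9, 15.7 and 6.29 CPM in IP 1, 2 and 3 against 28.9 CPM (log2 fold -1.23 ± 1.01, SE). Nrp2, which binds Sema3c and Sema3f, straddled it, at 21.1, 14.5 and 23.8 CPM in the IP libraries and 15.0 CPM in the Input.

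Eph receptors mostly overlapped the Input. Of 12 tested genes 2 were above it in all 3 IP libraries (16.7%, beside 19.7% of all genes) and 2 below (16.7%, beside 24.1%). Under upper-quartile factors or library totals 0 were above, beside 13.4% and 12.1% of all genes. Epha4, which is unusual in binding ephrins of both classes, was at 244, 278 and 244 CPM in IP 1, 2 and 3, against 218 CPM in the Input (mean in IP 256 ± 19.8 CPM, SD, n = 3). Its log2 fold of 0.23 ± 0.42 (SE, 95% interval -0.64 to 1.10) had the smallest SE of the members, and it was -0.05 with library totals. Epha5, a receptor of A ephrins, was at 206, 150 and 69.8 CPM in the IP libraries and 78.6 CPM in the Input, so IP 1 and IP 2 were above it and IP 3 just below (log2 fold 0.85 ± 0.60).

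Epha7 and Epha6, further receptors of A ephrins, straddled the Input. Epha7 was at 79.8, 189 and 78.0 CPM in IP 1, 2 and 3, against 99.4 CPM in the Input, and Epha6 at 34.2, 23.7 and 58.3 CPM, against 33.5 CPM. Their log2 folds of 0.22 and 0.21 were both -0.06 with library totals. Epha3 was above the Input in all 3 IP libraries only narrowly, with 7.15 CPM in the lowest and 7.08 CPM in the Input.

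Of the EphB receptors 0 of 5 lay above the Input in all 3 IP libraries, beside 19.7% of all genes. Ephb6, whose kinase domain is inactive, was at 14.3, 6.31 and 45.3 CPM in IP 1, 2 and 3, against 45.1 CPM in the Input (log2 fold -1.04 ± 0.96, SE). Ephb1 was below the Input throughout, at 15.2, 3.64 and 6.81 CPM against 16.1 CPM, whereas Ephb2 and Ephb3 straddled it. Ephb4, best known from veins, was at 0.107 to 2.59 CPM in the IP libraries and 0.959 CPM in the Input. Epha10, the other Eph receptor with an inactive kinase, was at 9.89, 0.428 and 24.0 CPM in IP 1, 2 and 3, against 12.8 CPM. Epha8 stayed under 1.86 CPM, its level in the Input, and Epha1 and Epha2 had at most 12 counts in any library and were not tested. Over the 12 tested receptors the median log2 fold was 0.21 (all genes 0.08), with -0.06 under library totals (all genes -0.19) and -0.14 with limma-voom (all genes also -0.14).

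Ephrins, the ligands of these receptors, had a median log2 fold of -0.04. Of 7 tested genes 1 was above the Input in all 3 IP libraries (14.3%, beside 19.7% of all genes) and 2 were below (28.6%, beside 24.1%). Efnb2, a transmembrane ephrin of neurons and arteries, was at 25.9, 119 and 67.7 CPM in IP 1, 2 and 3, against 52.5 CPM in the Input (log2 fold 0.43 ± 0.76, SE), and its fold was -0.17 without IP 2. Efna5, a lipid-anchored ephrin that sets up topographic maps, was at 33.2, 43.2 and 75.8 CPM in the IP libraries and 71.8 CPM in the Input (log2 fold -0.50 ± 0.68). Both genes therefore overlapped the Input.

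Efnb1 was the ephrin above the Input throughout, at 12.2, 8.66 and 39.7 CPM in IP 1, 2 and 3, against 5.04 CPM (log2 fold 2.0 ± 1.29, SE, unadjusted p = 0.137 by edgeR). Without IP 3 its log2 fold was 1.05. Efnb3 was at 13.8, 33.9 and 21.7 CPM in the IP libraries and 23.7 CPM in the Input, and Efna3, which overlaps another annotated gene over 14.13% of its exon bases, at 11.7, 6.95 and 18.3 CPM against 8.10 CPM. Efna2 had 3, 2 and 0 counts in IP 1, 2 and 3, against 37 in the Input, which is 0.131, 0.214 and 0 CPM against 2.22 CPM. At these levels its log2 fold of -4.19 ± 2.94 (SE) was not resolved from 0 (unadjusted p = 0.170 by edgeR). Efna1 was at no more than 0.690 CPM in the IP libraries and 0.840 CPM in the Input, and Efna4 had 0 counts in every library.

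Robo receptors lay above the Input in all 3 IP libraries for 3 of 4 genes (75.0%, beside 19.7% of all genes), and 1 lay below (25.0%, beside 24.1%). Robo1 and Robo2, the main Slit receptors of the forebrain, were among the 3. Robo1 was at 89.3, 96.9 and 137 CPM in IP 1, 2 and 3, against 52.6 CPM in the Input (log2 fold 1.03 ± 0.60, SE, 95% interval -0.22 to 2.28, unadjusted p = 0.101 by edgeR). Robo2 was at 187, 136 and 253 CPM in the IP libraries and 110 CPM in the Input (log2 fold 0.81 ± 0.50, SE, unadjusted p = 0.126 by edgeR). The 2 genes are neighbours on chromosome 16, Robo1 at 72308306 to 73046095 and Robo2 at 73891839 to 74411825. For both, IP 3 was the highest library and the adjusted p was 1.

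Robo4, a receptor known from endothelial cells, was at 2.01, 10.6 and 3.88 CPM in IP 1, 2 and 3, against 0.540 CPM (9 counts) in the Input (log2 fold 3.32 ± 2.28, SE, unadjusted p = 0.162 by edgeR). The endothelial markers summed to 158, 541 and 249 CPM in IP 1, 2 and 3, against 45.8 CPM in the Input, and none of the 14 was at 0 in the IP libraries. A single gene, Slc2a1, made up 49.9, 307 and 103 CPM of that sum, against 22.8 CPM in the Input. The median log2 ratio of the 14 markers to the Input was 1.40, 2.35 and 1.92. Sum and median were highest in IP 2, but Pecam1, Ly6a, Cdh5, Cldn5 and Esam were each highest in another IP library. The part of endothelial RNA in the values of Robo4, Plxnd1, Efnb2 and Unc5b was not tested. Robo3, which acts in commissural axons, was at 0.428 to 1.98 CPM in the IP libraries and 2.76 CPM in the Input, below it throughout.

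The Slits are secreted repellents, and all 3 straddled the Input. Slit2 was at 19.1, 31.3 and 68.3 CPM in IP 1, 2 and 3, against 50.9 CPM in the Input (log2 fold -0.36 ± 0.80, SE). Slit3 was at 22.2, 23.5 and 42.4 CPM, against 33.6 CPM, and Slit1 at 15.2, 24.6 and 22.5 CPM, against 16.3 CPM. For Slit2 and Slit3 IP 3 alone exceeded the Input, and for Slit1 IP 1 alone was below it. As a median the log2 fold was -0.19 for the Slits, beside 0.92 for the Robo receptors, and the difference between the families was not tested.

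Netrin receptors were mixed. Dcc, which mediates attraction to netrin 1, was at 35.1, 48.7 and 61.0 CPM in IP 1, 2 and 3, against 30.5 CPM in the Input (log2 fold 0.66 ± 0.78, SE, 95% interval -0.97 to 2.29). All 3 IP libraries of Dcc were above the Input, but not under library totals, where its log2 fold was 0.38. Neo1, the Dcc relative that also binds repulsive guidance molecules, was at 81.9, 82.2 and 142 CPM in the IP libraries and 109 CPM in the Input (log2 fold -0.09 ± 0.55). Unc5a, a receptor for repulsion, was below the Input in all 3, at 22.4, 75.9 and 47.6 CPM against 82.6 CPM (log2 fold -0.77 ± 0.70).

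Unc5d differed by over 10 times among IP libraries, at 13.2, 153 and 42.6 CPM in IP 1, 2 and 3, against 74.2 CPM in the Input. Unc5b was at 3.70, 1.92 and 34.3 CPM in the IP libraries and 5.10 CPM in the Input, high in IP 3 alone (log2 fold 1.38 ± 1.60, SE, and -0.85 without IP 3), and Unc5c at 18.4, 38.5 and 54.7 CPM against 45.6 CPM. Over the 6 netrin receptors the median log2 fold was -0.09, with 0.20 without IP 1 and -0.55 without IP 3.

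Of the 4 netrins 1 was above the Input in all 3 IP libraries (25.0%, beside 19.7% of all genes) and 1 below (25.0%, beside 24.1%). Ntn1, the attractant for which the family is best known, was at 14.0, 4.28 and 6.55 CPM in IP 1, 2 and 3, against 1.86 CPM (31 counts) in the Input, above it in all 3 but not resolved (log2 fold 2.15 ± 1.77, SE, unadjusted p = 0.239 by edgeR). Ntn3 was below it in all 3, at 0.0872, 0.321 and 0.431 CPM against 2.94 CPM. Ntn4, a netrin of basement membranes, was at 1.09, 4.49 and 3.71 CPM in the IP libraries and 3.96 CPM in the Input. Ntn5 had 1, 0 and 36 counts in IP 1, 2 and 3, against 11 in the Input, so its value rests on IP 3, and it overlaps another annotated gene over 23.42% of its exon bases.

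To compare levels between genes, CPM was divided by the length of each gene's exons in kb (GENCODE M21). On this scale Epha4 ranked first of the 70 members in both fractions, at 31.7 CPM per kb as a mean of the IP libraries and 27.1 CPM per kb in the Input. Sema3c ranked 5th in IP and 33rd in the Input, with 14.4 CPM per kb in IP and 2.40 in the Input. Sema5a ranked 8th in IP and 23rd in the Input, and Sema6a 11th in IP and 26th in the Input. In the opposite direction, Sema7a ranked 16th in IP and 2nd in the Input, Unc5a 13th and 3rd, and Ephb6 26th and 8th.

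**Figure D3:**
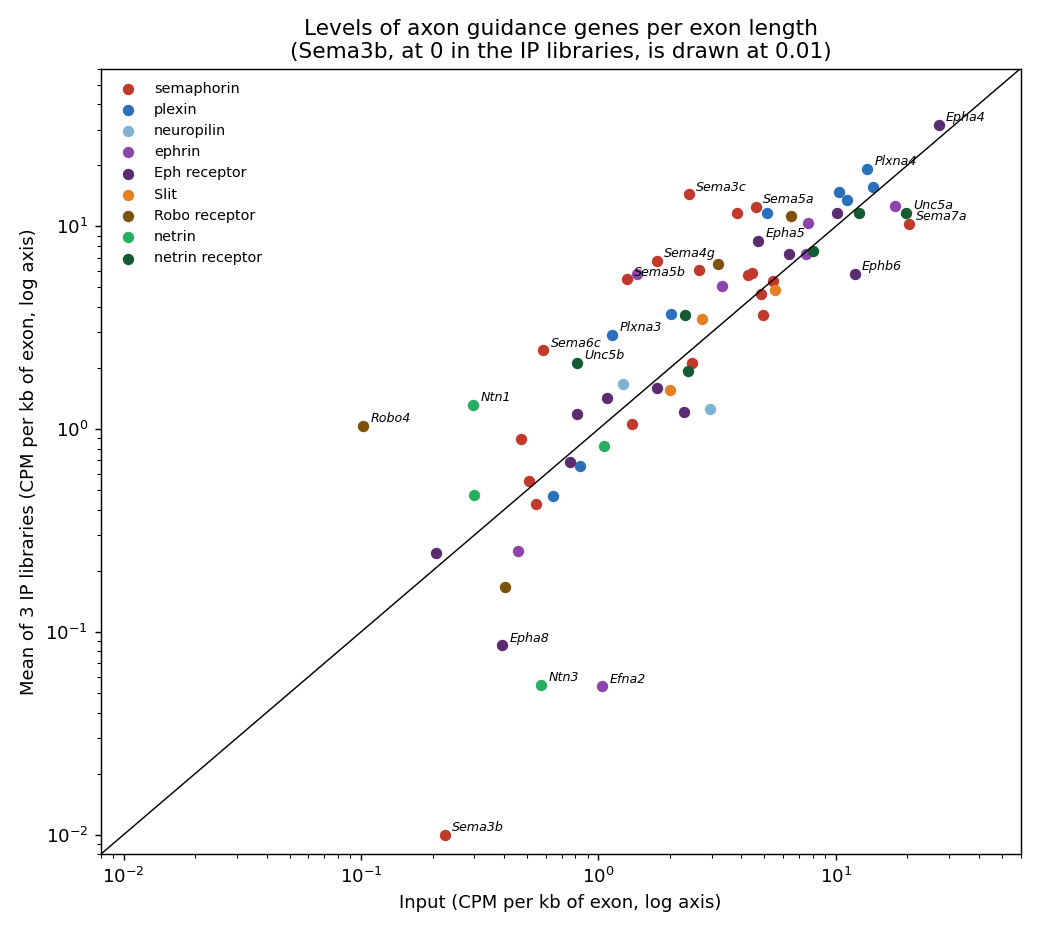
Mean CPM per kb of exon over the 3 IP libraries (vertical log axis) against the Input (horizontal log axis) for the 66 tested axon guidance genes, coloured by family. The line marks equal levels. Epha4 is at the upper right close to the line, Sema3c lies above it at 14.4 against 2.40 CPM per kb, and Sema7a and Ephb6 lie below it.

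Summed over each family, semaphorins reached 90.0, 100 and 110 CPM per kb in IP 1, 2 and 3, against 67.0 in the Input, and every IP library was above the Input. Robo receptors were also above it in all 3, at 16.9, 15.9 and 24.2 CPM per kb against 10.2. The sum of Eph receptors was close to the Input, at 67.7, 72.5 and 74.5 CPM per kb against 67.5. The sums of ephrins, Slits, plexins and netrin receptors were lowest in IP 1, where each was below the Input. Within the semaphorins the secreted class made 31.6, 16.7 and 23.9 CPM per kb in IP 1, 2 and 3, against 8.75 in the Input, and the membrane classes 58.4, 83.5 and 86.0, against 58.3.

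**Figure D4:**
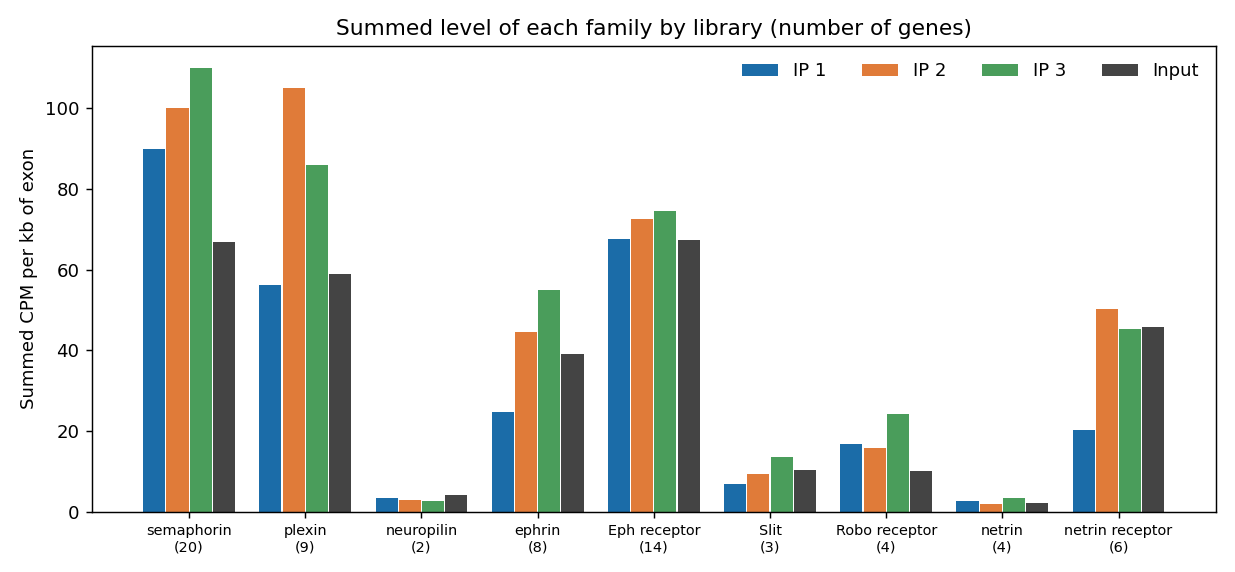
Summed CPM per kb of exon (vertical axis, from 0) of the genes of each family in IP 1, 2 and 3 and in the Input, with the number of genes in brackets. The IP bars of the semaphorins (90.0 to 110) and Robo receptors (15.9 to 24.2) all exceed the Input bars (67.0 and 10.2), and those of ephrins and netrin receptors are short in IP 1.

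The IP libraries differed among themselves in the guidance genes. Of the 53 members at a mean of at least 5 CPM, IP 1 was the lowest IP library for 25 and the highest for 7, while IP 3 was the highest for 28 and the lowest for 9. This was not counted over all genes at that level, so the order of the IP libraries is not shown to be particular to the members. The highest IP library was 2.50 times the lowest at the median member, beside 2.19 times for all genes tested at that level. The median log2 ratio of these members to the Input was 0.01 in IP 1, 0.35 in IP 2 and 0.46 in IP 3. Among receptors at that level the largest ratios were 56.0 for Epha10, 23.9 for Plxnd1 and 17.8 for Unc5b.

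Markers of other cells also differed among the IP libraries. The summed level of the 14 excitatory markers was 3586, 6653 and 5367 CPM in IP 1, 2 and 3, against 5836 CPM in the Input, and that of 10 astrocyte markers 1661, 2862 and 1825 CPM, against 2711 CPM. A single gene, Camk2a, made up 2590, 4976 and 4160 CPM of the excitatory sum in IP 1, 2 and 3, against 2902 CPM in the Input, and the median log2 ratio of the 14 markers to the Input was -1.10, -0.59 and -0.90 in IP 1, 2 and 3. Of the astrocyte sum Slc1a2 alone made up 1380, 2457 and 1546 CPM, against 2122 CPM in the Input. The median log2 ratio of the 10 astrocyte markers was -1.24, -0.55 and -1.07, and Gja1, Aqp4 and Gfap were each highest in an IP library other than IP 2. Both sums were highest in IP 2. However, the excitatory markers Nrn1, Rorb, Neurod2, Tbr1, Cux2 and Foxp2 were each highest in IP 3, and Fezf2 in IP 1. IP 2 was the highest IP library for 18 of the 53 members at a mean of at least 5 CPM. Plxna2, Plxnd1, Sema4d, Efnb2, Epha7 and Unc5d were among these 18. The 10 Vip and caudal ganglionic eminence markers summed to 9234, 5664 and 5949 CPM, against 353 CPM. Vip alone made up 3802, 2253 and 2254 CPM of that sum, against 33.8 CPM in the Input. The sum was highest in IP 1, as was Sema3c, but the markers Adarb2 and Prox1 were highest in IP 3. The part of these cell types in the members' values was not tested.

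Of other genes of the pathway, 0 of 29 tested co-receptors and further ligands and 0 of 49 tested effectors in the cytoplasm were called by edgeR, beside 0.458% of all genes, with 4 and 6 at an unadjusted p under 0.05, beside 4.43%. DESeq2 called 0 and 2 of them, beside 1.24%, and limma-voom 0 and 0, beside 0.348%. The IP libraries lay above the Input for 10 of the co-receptors and further ligands (34.5%) and 23 of the effectors (46.9%), beside 19.7% of all genes, and below it for 5 (17.2%) and 9 (18.4%), beside 24.1%. Dpysl5, an effector of the collapsin response mediator family, came nearest, at 99.7, 215 and 196 CPM in IP 1, 2 and 3, against 23.0 CPM in the Input (log2 fold 2.89 ± 0.64, SE, adjusted p = 0.0502 by edgeR). It was above the Input in all 3 IP libraries, and it was called by DESeq2, without a low-count filter, and without IP 1, IP 2 or IP 3, with adjusted p from 1.78e-05 to 0.0319. With limma-voom, RLE factors, upper-quartile factors or library totals it was not called.

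Mical3, of the family of enzymes that oxidize actin downstream of plexins, was at 188, 525 and 457 CPM in IP 1, 2 and 3, against 93.8 CPM in the Input (log2 fold 2.06 ± 0.55, SE, adjusted p = 0.189 by edgeR, and 4.40e-06 without IP 1). Trio, a signalling protein that acts below Dcc, was at 442, 863 and 931 CPM, against 263 CPM (log2 fold 1.51 ± 0.45, adjusted p = 0.319, and 5.66e-05 without IP 1). For both, all IP libraries were above the Input with IP 1 the lowest. Mical3 was also called by DESeq2 and, in edgeR, without a low-count filter. Neither gene was called without IP 2 or without IP 3.

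Among the co-receptors, Chl1, a cell adhesion molecule that partners neuropilin 1, was at 401, 415 and 480 CPM in IP 1, 2 and 3, against 181 CPM in the Input (log2 fold 1.26 ± 0.42, SE, adjusted p = 0.496 by edgeR). Rgmb, a repulsive guidance molecule and ligand of Neo1, was at 76.3, 44.4 and 90.3 CPM, against 21.0 CPM (log2 fold 1.74 ± 0.76). Lingo1, a partner of the Nogo receptor, was below the Input throughout, at 183, 312 and 235 CPM against 518 CPM (log2 fold -1.09 ± 0.40, adjusted p = 0.672). These 3 genes had the smallest p-values of their list.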

How the data were processed

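Per the file headers, the deposited values are raw counts of reads by gene, with an Entrez identifier and symbol, 1 library per table. The submitters' processing notes name STAR 2.0.0e, HTSeq and mm10. The table names hold the word subread, another counting program, so the counter is not settled. Annotation, strand and treatment of multiply mapped reads are not given in the sources used here, so reads of overlapping or antisense genes may not have been told apart. A further 9 genes listed by Entrez identifier alone, with no symbol, held up to 0.0221% of a library's counts and were kept.

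Counts were analysed in R 4.3.3. filterByExpr of edgeR 4.0.16 (minimum count 10) kept 14636 genes, and TMM factors were 0.974, 0.932 and 0.955 for the IP libraries and 1.15 for the Input. IP was compared with Input by the two-sided edgeR quasi-likelihood F test. SE was derived as log2 fold over √F, and intervals use 19.0 degrees of freedom (2 residual, 17 prior). The Input is 1 library, so the spread comes from the IP libraries (biological coefficient of variation 0.787) and the Input is assumed to vary like them. The labels do not say whether IP libraries are separate animals, and so the p-values reflect no more than how these libraries vary, which may be technical. No library copied another (chi-square per degree of freedom at least 84.7 for each pair). The tests were tested on simulated data.

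Alternatives were DESeq2 1.42.0, limma-voom (limma 3.58.1), 3 other scalings, 2 other filters and leaving out each IP library. Exon lengths, positions and shared exon bases come from GENCODE M21 (GRCm38), matched by Entrez identifier for all 70 members. Promoter sequences are from RefSeq (GRCm38.p6), where 60 members had an entry. Members and lists were chosen with earlier results of these data known. Values were to be printed for members past the threshold or at an unadjusted p under 0.05, for the 4 members of each family with the highest mean CPM (plexins and neuropilins as 1 family), and for the 3 genes of each pathway list with the smallest p. The other members' values were chosen for printing after they were seen.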

Additional observations from a re-analysis of the deposited data

How the results depend on the processing

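With a single Input the counts of calls depended on the method. Over all genes 67 were called, against 181 with DESeq2 (167 higher, 14 lower, against 60 and 7), 108 without a low-count filter, and 90 to 210 when an IP library was left out (210 without IP 1, 105 without IP 2). The split was 50 higher and 15 lower under library totals, 51 and 15 under upper-quartile factors, and 37 and 14 under limma-voom. The count of called members was 0, with 1 under DESeq2 and 0 to 1 when an IP library was left out (1 without IP 1, 1 without IP 2), and that of effectors in the cytoplasm was 0, with 2 under DESeq2, 2 without a low-count filter and 1 to 3 when a library was left out. The median log2 fold of the members was 0.22 (all genes 0.08), with -0.17 under limma-voom (all genes -0.14), and 0.09 to 0.36 when a library was left out (all genes 0.02 to 0.06). Of the 66 tested members 26 changed the sign of their log2 fold under at least 1 alternative, and 40 under none. These were, under library totals, Epha4 (-0.05), Epha6 (-0.06), Epha7 (-0.06), Ephb4 (-0.03), Plxna2 (-0.15) and Sema3f (-0.11), under upper-quartile factors Epha6 (-0.00), Epha7 (-0.01), Plxna2 (-0.09) and Sema3f (-0.06), and under limma-voom Efnb2 (-0.06), Epha7 (-0.01), Ephb4 (-0.50), Plxna2 (-0.17), Sema3f (-0.90), Sema4d (-0.18), Plxnd1 (-0.25) and Ntn5 (-1.73). Leaving out an IP library turned 23, whose log2 folds then ran as follows: Efnb2 (-0.17 to 0.81), Efnb3 (-0.42 to 0.21), Epha10 (-1.30 to 0.40), Epha6 (-0.21 to 0.46), Epha7 (-0.33 to 0.44), Ephb2 (-0.50 to 0.03), Ephb4 (-1.20 to 0.76), Neo1 (-0.41 to 0.04), Ntn4 (-0.73 to 0.03), Plxna1 (-0.00 to 0.43), Plxna2 (-0.47 to 0.42), Plxnb1 (-1.29 to 0.13), Plxnb3 (-2.07 to 0.09), Sema3a (-0.54 to 0.16), Sema3f (-2.67 to 0.68), Sema4c (-1.51 to 0.17), Sema4d (-0.44 to 0.81), Sema4f (-0.65 to 0.35), Sema6b (-0.05 to 0.77), Sema6d (-0.31 to 0.12), Unc5b (-0.85 to 1.89), Unc5c (-0.68 to 0.01) and Unc5d (-1.42 to 0.37). The cause was not tested. No paired analysis was possible because the Input is 1 library, so fewer than 2 pairs could be formed. Low counts limit what can be said of Efna1, Efna2, Epha8, Ephb4, Robo3, Robo4, Ntn3, Ntn5, Plxnb3, Sema3b, Sema3f and Sema4c, whose SEs were all above 2.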
